A study of Mus musculus with 16 samples.

Results

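The genes described here are 9 transcripts of the integrated stress response (Atf4, Atf5, Ddit3, Asns, Trib3, Psat1, Phgdh, Gdf15 and Sesn2) together with Impact, which encodes an inhibitor of one of the sensors of this response. They were chosen by name as rows of the gene count table, so that they make up 10 of its 24454 genes, and all 10 had enough reads to be tested. RNA was sequenced from gastrocnemius muscle of 16 mice aged 3 months. HSALR mice, a model of myotonic dystrophy type 1, were homozygous for a human skeletal actin transgene with long CTG repeats (1 line, LR20b), and their controls were FVB/N mice without the transgene. Mice of each genotype received AICAR (500 mg/kg) for 7 days or no AICAR, the latter labelled CTRL and named vehicle in the study design, which gave 3 control mice with vehicle, 3 control mice with AICAR, 5 HSALR mice with vehicle and 5 HSALR mice with AICAR. Mice carry the numbers of the labels and are given in their order: S445, S446 and S450, then S447, S448 and S449, then S451, S452, S453, S458 and S459, then S454, S455, S460, S462 and S463. The transgene is expressed in skeletal muscle and not in the other tissues that are affected in patients, which limits HSALR mice as a model. The design compares HSALR with control muscle, AICAR with vehicle, and the effect of AICAR between the genotypes.

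In the integrated stress response, kinases that sense amino acid shortage (GCN2), endoplasmic reticulum stress (PERK), double-stranded RNA (PKR) or haem and mitochondrial stress (HRI) phosphorylate the translation initiation factor eIF2, which lowers protein synthesis in general while the mRNA of the transcription factor ATF4 is translated more. ATF4 and its partners then raise the transcription of genes for amino acid synthesis, uptake and tRNA charging, and of feedback regulators. IMPACT competes with GCN2 for the activator GCN1 and so restrains GCN2, and AICAR is a precursor of an AMP analogue that activates the energy sensor AMPK. Because ATF4 and ATF5 are controlled largely in translation, transcript counts do not measure their protein.

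Libraries held 64890014 to 81987726 gene counts, and levels are given as normalized CPM, counts divided by library size after scaling by the trimmed mean of M values (TMM). A gene was called where the quasi-likelihood test of edgeR gave a Benjamini-Hochberg adjusted p under 0.05 over the 15487 genes tested, and fold changes are given as log2 values with their standard error (SE). Muscle markers summed to 89162 to 136339 CPM in every library. Epidermal markers were present in some of them: their summed level ran from 0.26 to 92.3 CPM in control mice with vehicle, from 0.24 to 104 CPM in control mice with AICAR, from 0.61 to 187 CPM in HSALR mice with vehicle and from 0.24 to 0.37 CPM in HSALR mice with AICAR. All 8 epidermal markers were called lower with AICAR in HSALR mice, and 6 of the 16 libraries (1, 1, 4 and 0 in the groups in that order) had more than 1 CPM of Krt14, which was at 0 in 5 mice. Krt5 and Krt15 were at 0 in 7 mice each, Krt1 in 6, Flg2 and Dsg1a in 8 each, Lor in 2 and Krtdap in none. All 3 endothelial markers were called lower in HSALR than in control mice after vehicle (137 to 182 against 208 to 234 CPM summed), and 2 of 5 leukocyte markers higher (65.5 to 79.6 against 48.9 to 67.5 CPM summed). In the same comparison 3 of 5 muscle markers were called higher and 0 lower. The part of endothelium and leukocytes in the results was not tested. In whole muscle, fewer cells of a type and less RNA per cell cannot be told apart.

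After vehicle, no member was called between HSALR and control mice (0 of 10 members by edgeR, where 26.9% of all genes were called). The members with an unadjusted p under 0.05 in that comparison were 2, Atf5 and Ddit3, and DESeq2 and limma-voom called 0 members as well. With AICAR, 3 of 10 members were called in control mice (13.2% of all genes): Impact rose (8.4% of all genes were called higher), and Atf5 and Sesn2 fell (4.77% lower). In HSALR mice 2 of 10 members, Atf4 and Atf5, were called with AICAR and both fell (26.6% of all genes were called, 13% lower). After AICAR, 1 of 10 members, Impact, differed between the genotypes and was lower in HSALR mice (21.8% of all genes were called, 9.64% lower). The effect of AICAR itself differed between the genotypes for 1 of 10 members, again Impact, where 0.691% of all genes were called, 0.484% lower. The median log2 fold change of the 10 members with AICAR was 0.11 in control mice and -0.06 in HSALR mice, beside -0.01 and -0.02 over all genes tested. Control mice with vehicle serve in both the genotype and the AICAR comparison, so these comparisons are not independent.

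**Figure D1:**
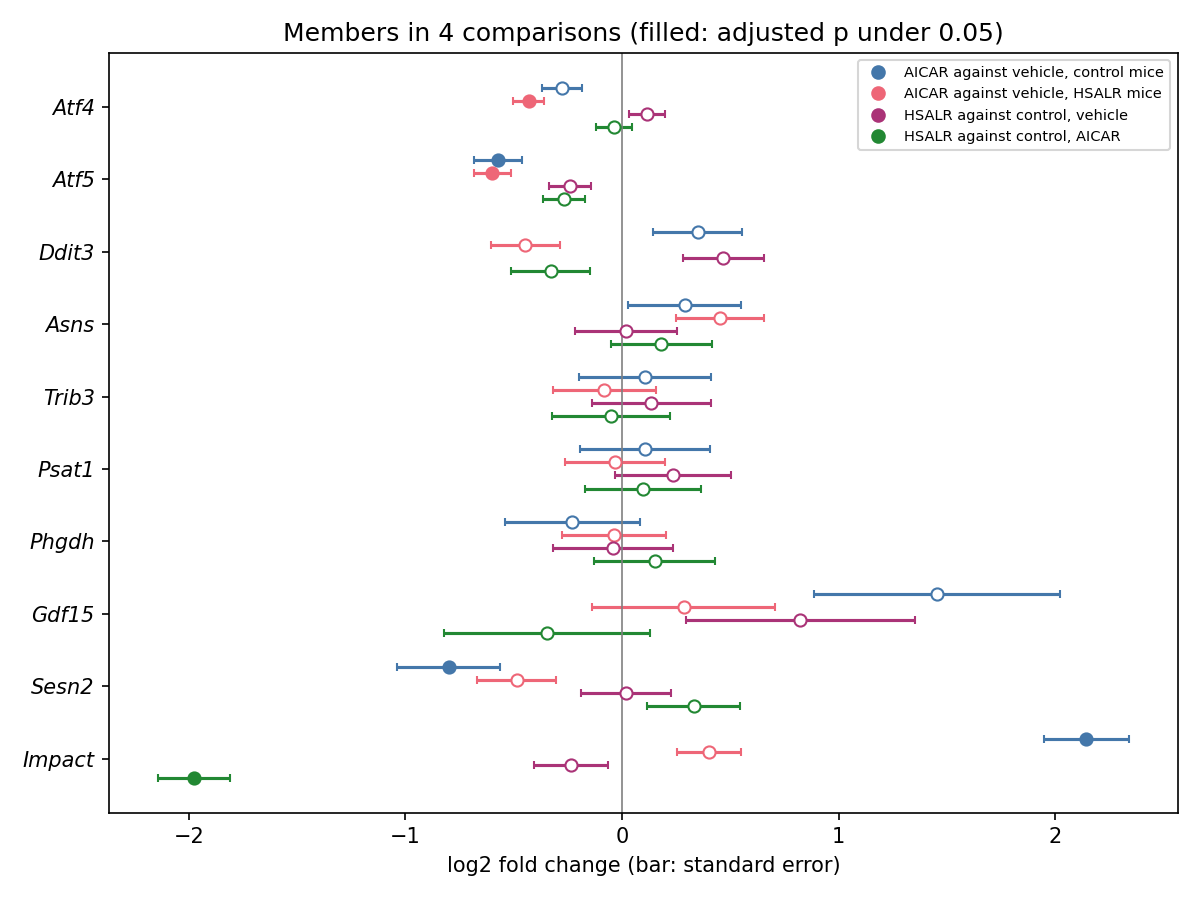
Log2 fold change of the 10 members (x axis, bars are the standard error) in the AICAR comparisons within each genotype and the genotype comparisons within each treatment. Filled points have an adjusted p under 0.05, and Impact stands at 2.14 with AICAR in control mice and at -1.98 between the genotypes after AICAR.

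Impact lies on chromosome 18 (12954690 to 12992950, GRCm38) and codes for the protein that restrains GCN2. In control mice with vehicle its level was 21.7, 25.3 and 18.8 CPM. In control mice with AICAR it was 102, 83.7 and 105 CPM. HSALR mice with vehicle had 19.5, 18.9, 21.1, 16.5 and 17.2 CPM. Every control mouse with AICAR stood far above every other mouse of the series. HSALR mice with AICAR had 33.4, 25.5, 27.3, 17.2 and 19.8 CPM, so that 3 of them lay above all HSALR mice with vehicle and the other 2 (S462 and S463) within their range.

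In control mice AICAR raised Impact 4.42-fold (95% confidence interval 3.30 to 5.91), from 21.95 ± 3.23 to 97.0 ± 11.6 CPM (SD, n = 3 each), with a log2 fold change of 2.14 (SE 0.20, adjusted p = 1.85e-05). Among all genes tested this was rank 11 by p. In HSALR mice the levels were 18.7 ± 1.86 CPM with vehicle and 24.6 ± 6.38 CPM with AICAR (SD, n = 5 each), a log2 fold change of 0.40 (SE 0.15) that did not pass the threshold (adjusted p = 0.0573). That comparison was called without HSALR mouse S462 (0.51, adjusted p = 0.0143), without HSALR mouse S463 (0.47, adjusted p = 0.0373) and by DESeq2 (adjusted p = 0.0298). With the epidermal markers as a covariate it was 0.26 (adjusted p = 0.409). The difference of the 2 AICAR effects was -1.74 (SE 0.24, adjusted p = 0.00624), rank 7 of all genes. Without the 6 libraries with more than 1 CPM of Krt14 it was -1.80 and lost its call (adjusted p = 0.172), in a fit that keeps 1 HSALR mouse with vehicle, assumes that it varies like the rest and calls 0 of all genes for this difference (1485 at an unadjusted p under 0.05).

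After vehicle, Impact showed no call between the genotypes, with a log2 fold change of -0.24 (SE 0.17, adjusted p = 0.34) that was 0.02 relative to Tbp (adjusted p = 0.94). After AICAR the HSALR level was 0.254 of the control level (95% confidence interval 0.199 to 0.324, adjusted p = 1.91e-06), and all 5 HSALR mice were below all 3 controls (11.6% of all genes were separated towards lower levels). In this comparison 5 of 8 epidermal and 2 of 3 endothelial markers were also called lower, and of 5 muscle markers 3 were called higher and 1 lower. The log2 fold change of Impact was -2.03 with the epidermal markers as a covariate (adjusted p = 3.42e-06), and the part of the other cells was not tested. In the order of mean level, control mice with AICAR stood first, followed by HSALR mice with AICAR, control mice with vehicle and HSALR mice with vehicle. Of the neighbours in that order only the first pair differed; HSALR mice with AICAR and control mice with vehicle did not (adjusted p = 0.472). Of the 6 tested genes nearest to Impact on its chromosome, 3 on each side, AICAR in control mice called 1, Taf4b, a subunit of a transcription initiation complex, with a log2 fold change of 0.73 (adjusted p = 0.0152). The other 5 (Lama3, Ttc39c, Osbpl1a, Zfp521 and Ss18) had log2 fold changes between -0.12 and 0.14. The Impact calls in control mice and between the genotypes after AICAR held in all 16 fits without 1 mouse, and so did the difference of the AICAR effects (-1.88 to -1.64).

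**Figure D2:**
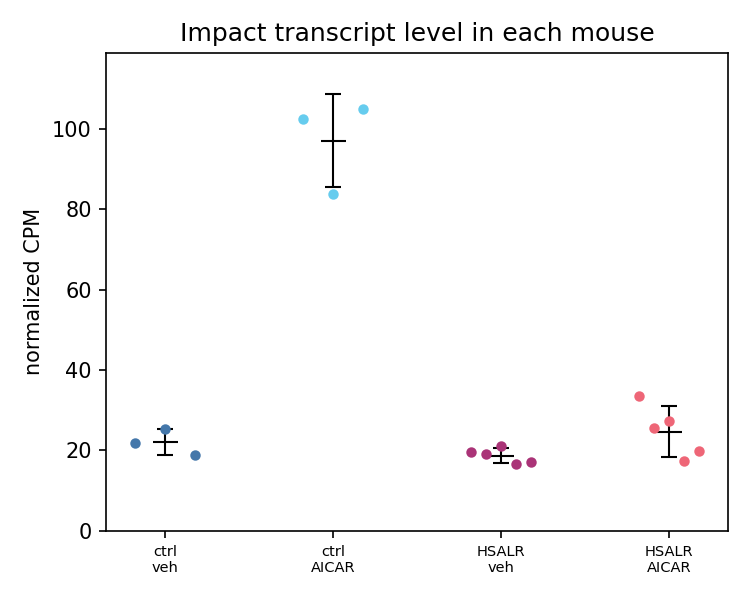
Impact level in each of the 16 mice (y axis, normalized CPM, from 0) by genotype and treatment. Points are mice, and the bar and whiskers are the mean and SD; the 3 control mice with AICAR sit between 83.7 and 105 CPM and all other mice at or below 33.4 CPM.

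Atf4, the central transcription factor of the response, was the most abundant member per transcript length, with a mean of 103 RPKM, reads scaled by length and depth, over the 16 mice. Control mice had 182, 210 and 181 CPM with vehicle and 164, 157 and 151 CPM with AICAR. HSALR mice with vehicle had 200, 226, 209, 205 and 193 CPM. With AICAR the HSALR level was 156, 126, 157, 162 and 166 CPM. In both genotypes every mouse with AICAR was below every mouse with vehicle, a separation towards lower levels that 15% of all genes showed in control mice and 7.48% in HSALR mice. The decrease was called in HSALR mice (log2 fold change -0.43, SE 0.07, adjusted p = 0.000567) and in all 16 fits that left out 1 mouse. In control mice the value of -0.28 (SE 0.09) missed the threshold (adjusted p = 0.0598), and it passed by DESeq2 (adjusted p = 0.0323) and without HSALR mouse S455 (adjusted p = 0.0205). The 2 AICAR effects on Atf4 differed by -0.15 (SE 0.12, adjusted p = 0.574), with a 95% confidence interval of 0.757 to 1.07 for the ratio of the folds. Between the genotypes Atf4 had a log2 fold change of 0.12 after vehicle (adjusted p = 0.336) and of -0.04 after AICAR (adjusted p = 0.789). Relative to Tbp as the only reference gene, which shifts the median of all genes by 0.27 between the genotypes after vehicle and by 0.20 with AICAR in control mice, the genotype value after vehicle was 0.38 and passed (adjusted p = 0.0427), and the AICAR value in control mice was -0.08 (adjusted p = 0.755).

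Atf5 codes for a related factor whose translation also rises when eIF2 is phosphorylated. Control mice had 73.2, 77.3 and 82.7 CPM with vehicle and 57.8, 54.9 and 44.3 CPM with AICAR. HSALR mice with vehicle had 63.9, 70.1, 61.8, 73.0 and 60.2 CPM, and with AICAR they had 44.9, 42.3, 37.6, 50.3 and 42.1 CPM. The groups with and without AICAR did not overlap in either genotype. Such a separation towards lower levels was shown by 15% of all genes in control mice and 7.48% in HSALR mice. Atf5 fell with AICAR in both genotypes, with log2 fold changes of -0.57 (SE 0.11, adjusted p = 0.00384) in control and -0.60 (SE 0.09, adjusted p = 0.000172) in HSALR mice, and the former was -0.36 and not called relative to Tbp (adjusted p = 0.107). The difference of these effects was -0.03 (SE 0.14, adjusted p = 0.948), and the ratio of the folds had a 95% confidence interval of 0.799 to 1.21. Between HSALR and control mice the log2 fold change of Atf5 was -0.24 after vehicle (adjusted p = 0.0813), without overlap of the groups (13% of all genes were separated towards lower levels), and -0.27 after AICAR (adjusted p = 0.0625), and neither passed the threshold. Without control mouse S449 both passed (adjusted p = 0.0494 and 0.0184), and the latter also without HSALR mouse S462 (adjusted p = 0.0279) and by DESeq2 (adjusted p = 0.0325). Relative to Tbp the value after vehicle had the other sign, at 0.03 (adjusted p = 0.88). Atf5 overlaps Nup62 and Il4i1b in the annotation, and whether strand was used in counting is not given in the sources used here, so reads of these genes could be counted together.

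The 2 decreases in HSALR mice moved with the epidermal markers given above, and in the same comparison 2 of 3 fibroblast markers were called lower (334 to 567 against 556 to 865 CPM summed), 1 of 5 leukocyte markers lower and 1 of 3 endothelial markers higher. The part of fibroblasts, leukocytes and endothelium was not tested. A covariate was made from the log2 sum of the epidermal markers. With it Atf4 was at -0.44 (adjusted p = 0.00887) and Atf5 at -0.54 (adjusted p = 0.00593), both still called. In HSALR mice the summed epidermal level did not overlap between vehicle (0.61 to 187 CPM) and AICAR (0.24 to 0.37 CPM). The covariate fit therefore cannot fully tell AICAR and epidermal RNA apart. Without the 6 libraries with Krt14 Atf4 and Atf5 were at -0.38 and -0.56, where 1 HSALR mouse with vehicle remains. The Atf5 decrease in control mice was -0.57 in that fit and lost its call (adjusted p = 0.0568).

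Sesn2 encodes a leucine-binding stress protein that restrains mTORC1 and is a target of ATF4. Control mice with vehicle had 2.76, 4.14 and 2.40 CPM and those with AICAR had 1.81, 1.98 and 1.56 CPM, without overlap. Of all genes, 15% were separated towards lower levels in this comparison. HSALR mice with vehicle had 3.21, 2.61, 3.51, 2.75 and 3.63 CPM, and 2.14, 1.68, 1.72, 2.86 and 2.81 CPM with AICAR, where S462 and S463 overlapped the vehicle group. Sesn2 fell with AICAR in control mice to 0.574 of the vehicle level (log2 fold change -0.80, SE 0.24, adjusted p = 0.0371). That call rests on each of 5 mice: the adjusted p was 0.0577 without S445, 0.17 without S446, 0.0774 without S447, 0.0613 without S448 and 0.13 without S449, with log2 fold changes from -0.89 to -0.53. It was also lost with limma-voom (-0.77, adjusted p = 0.0515), with only the 2 groups in the fit (-0.81, adjusted p = 0.0733), without the 6 libraries with Krt14 (-1.05, adjusted p = 0.0868) and relative to Tbp (-0.62, adjusted p = 0.132). In HSALR mice Sesn2 was at -0.49 (SE 0.18, adjusted p = 0.0603), which passed by DESeq2 (adjusted p = 0.0391) and without mouse S446, S462 or S463 (adjusted p = 0.0398, 0.037 and 0.0408), and the difference between the genotypes was 0.31 (SE 0.30, adjusted p = 0.664). After vehicle the HSALR and control means were 3.14 ± 0.45 and 3.10 ± 0.92 CPM (SD, n = 5 and 3), a log2 fold change of 0.02 (adjusted p = 0.963).

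Ddit3 encodes CHOP, a transcription factor linked to cell death under lasting stress. Its levels were 12.6, 9.41 and 6.82 CPM in control mice with vehicle and 14.4, 12.5 and 9.77 CPM in control mice with AICAR. HSALR mice had 9.92, 12.1, 12.4, 16.3 and 15.7 CPM with vehicle and 10.8, 9.48, 9.70, 9.14 and 9.56 CPM with AICAR. The highest HSALR mouse with AICAR lay above the lowest with vehicle, and the values of the 2 genotypes had opposite signs without a call. With AICAR the log2 fold change was 0.35 (SE 0.21, adjusted p = 0.285) in control and -0.45 (SE 0.16, adjusted p = 0.0503) in HSALR mice, and their difference was -0.80 (SE 0.26, adjusted p = 0.172). The HSALR value passed by DESeq2 (adjusted p = 0.0261), with only the 2 groups in the fit (adjusted p = 0.021) and without mouse S445, S447, S449, S450 or S451 (adjusted p from 0.0226 to 0.0495). The HSALR value was -0.03 without the 6 libraries with Krt14, where the difference between the genotypes was -0.16. That fit keeps 1 HSALR mouse with vehicle. Between HSALR and control mice after vehicle the log2 fold change was 0.47 (SE 0.19, adjusted p = 0.0766), which passed without control mouse S445 (0.71, adjusted p = 0.0197), without HSALR mouse S451 (0.54, adjusted p = 0.0369) and relative to Tbp (0.74, adjusted p = 0.0121). It had the other sign, at -0.15, without the 6 libraries with Krt14, where 1 HSALR mouse with vehicle remains. Ddit3 overlaps Mbd6 and Mars1, with which reads could be shared.

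**Figure D3:**
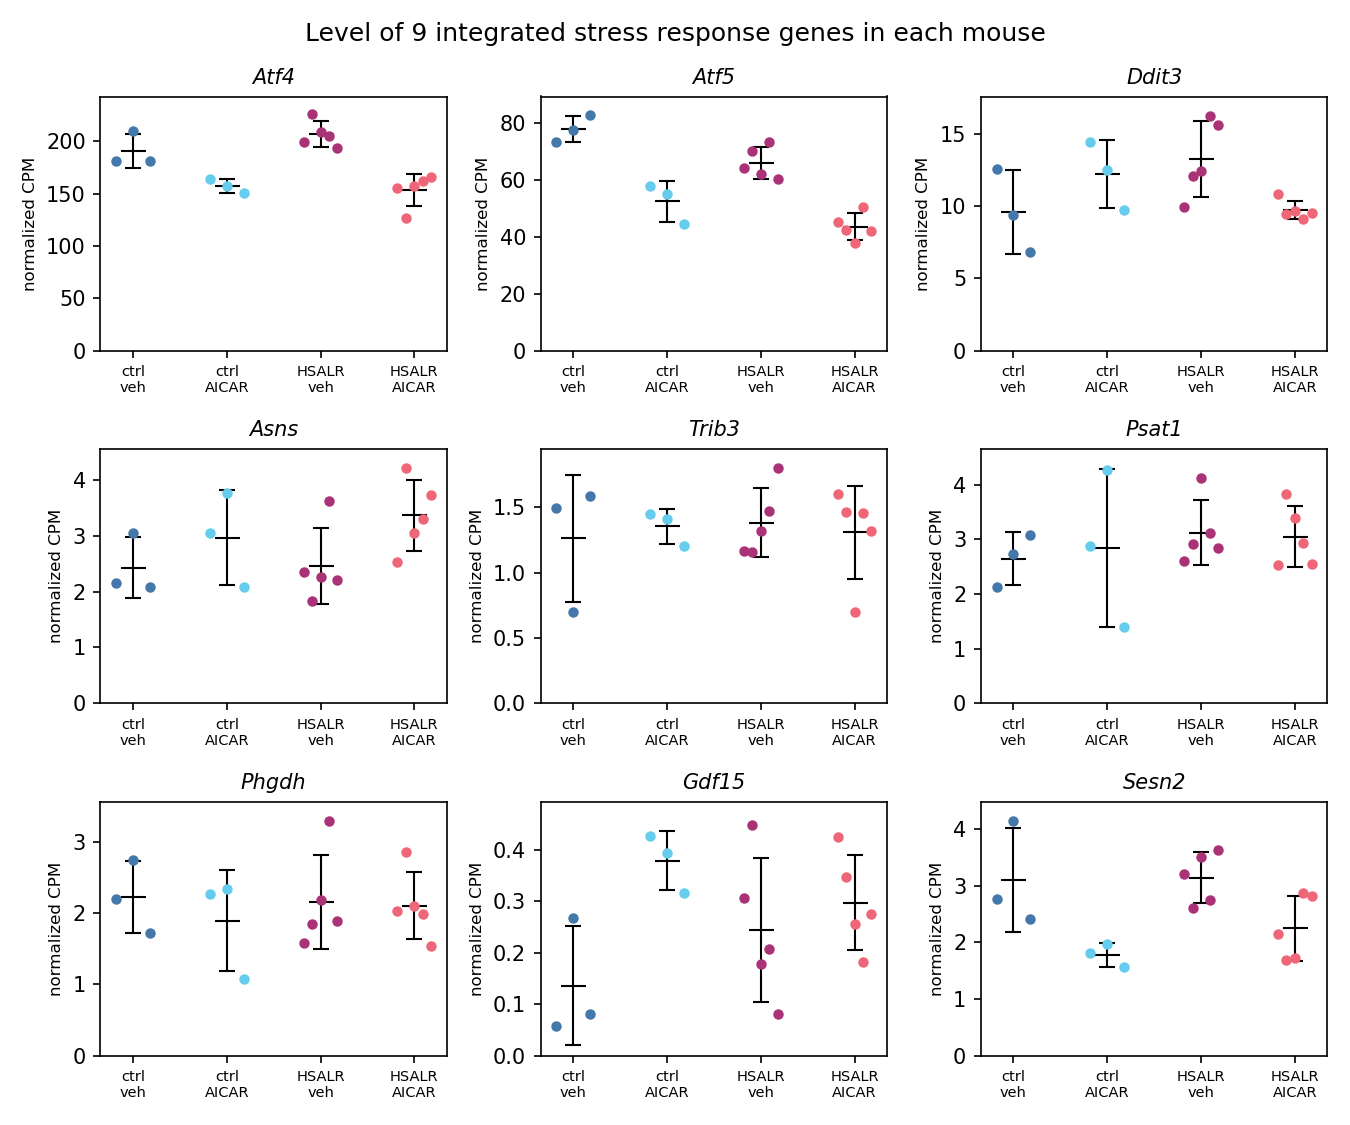
Level in each mouse (y axis, normalized CPM, each panel from 0 on its own scale) of the 9 stress response genes by genotype and treatment, with mean and SD. Atf4 and Atf5 are below the vehicle groups in all mice with AICAR of both genotypes, while Trib3, Psat1 and Phgdh overlap in every pair of groups.

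Asns encodes asparagine synthetase and has a well-described ATF4 site in its promoter. Promoter windows of 250 bases before a transcript start were read from RefSeq (GRCm38.p6) for 9 of the 10 members, 12 windows in all, and searched on both strands for TGATGNAA, the core of the C/EBP-ATF response element, and for TGACGTCA, the cyclic AMP response element (no window of a member held both). TGATGNAA was found in 3.45% of 32851 such windows of all genes and TGACGTCA in 1.55%. Of the 9 members with a window, 1 (Asns) held TGATGNAA, 23 bases before its start, and 0 held TGACGTCA. Counted by window, 1 of the 12 held TGATGNAA and 0 held TGACGTCA. Impact had no window and was not searched. The windows of Asns and of 2 members that fell with AICAR, Atf4 and Sesn2, are shown 5′ to 3′ on the gene's strand, with the match in capitals and none in the last 2.
Asns, chr6:7693210-7693459, minus strand: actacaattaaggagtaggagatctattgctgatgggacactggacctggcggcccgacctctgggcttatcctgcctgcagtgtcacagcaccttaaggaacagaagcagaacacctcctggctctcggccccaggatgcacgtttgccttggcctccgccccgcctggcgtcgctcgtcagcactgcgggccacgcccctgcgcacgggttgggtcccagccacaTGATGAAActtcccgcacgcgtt
Atf4, chr15:80254934-80255183, plus strand: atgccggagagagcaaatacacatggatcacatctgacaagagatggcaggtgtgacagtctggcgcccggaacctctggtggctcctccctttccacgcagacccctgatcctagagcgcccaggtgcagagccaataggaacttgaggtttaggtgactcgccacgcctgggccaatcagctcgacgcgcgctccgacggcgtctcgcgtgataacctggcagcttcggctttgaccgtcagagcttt
Sesn2, chr4:132510457-132510706, minus strand: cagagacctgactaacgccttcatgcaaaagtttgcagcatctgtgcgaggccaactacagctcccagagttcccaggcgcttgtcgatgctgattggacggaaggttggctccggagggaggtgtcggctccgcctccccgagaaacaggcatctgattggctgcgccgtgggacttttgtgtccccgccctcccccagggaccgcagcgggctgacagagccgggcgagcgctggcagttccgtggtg
An absent match says only that these letters are not in the window.

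Asns levels were 2.15, 3.06 and 2.08 CPM in control mice with vehicle and 3.06, 3.77 and 2.08 CPM with AICAR. HSALR mice had 2.35, 1.83, 2.27, 3.63 and 2.21 CPM with vehicle and 2.54, 4.22, 3.04, 3.31 and 3.73 CPM with AICAR. Groups overlapped in every pair. With AICAR the log2 fold change of Asns was 0.29 (SE 0.26, adjusted p = 0.51) in control and 0.45 (SE 0.20, adjusted p = 0.114) in HSALR mice, the opposite sign to Atf4, and without the 6 libraries with Krt14 the control value was -0.03 (adjusted p = 0.959). Without HSALR mouse S458, the highest with vehicle, the HSALR value was 0.64 and passed (adjusted p = 0.0236).

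The remaining metabolic targets are Phgdh and Psat1, the first 2 enzymes of serine synthesis. Phgdh ran from 1.07 to 3.29 CPM and Psat1 from 1.39 to 4.28 CPM over the 16 mice, and neither was called in any comparison. Control mice with AICAR spread widely, with 2.87, 4.28 and 1.39 CPM of Psat1 and 2.28, 2.34 and 1.07 CPM of Phgdh, both lowest in S449. The HSALR means of Psat1 were 3.12 ± 0.60 CPM with vehicle and 3.05 ± 0.56 CPM with AICAR (SD, n = 5 each), a log2 fold change of -0.03 with a 95% confidence interval of 0.695 to 1.38 for the fold. With the epidermal markers as a covariate that value was 0.48 (adjusted p = 0.192), and the difference of the AICAR effects on Psat1 went from -0.14 to 0.40 (adjusted p = 0.647). For Phgdh the fold with AICAR in HSALR mice had an interval of 0.685 to 1.39.

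Trib3, a pseudokinase that feeds back on ATF4 and on insulin signalling, had means between 1.26 and 1.38 CPM in the 4 groups. Single mice had from 0.70 to 1.80 CPM, and no comparison called it. In control mice its fold with AICAR was 1.08 with a 95% confidence interval of 0.686 to 1.69, and in HSALR mice it was 0.945 with an interval of 0.667 to 1.34.

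Gdf15 encodes a secreted cytokine used as a marker of mitochondrial stress. It was barely detected, with 4 to 33 counts per library and levels from 0.06 to 0.45 CPM. Control mice had 4, 21 and 6 counts with vehicle and 30, 30 and 22 counts with AICAR, without overlap (18.1% of all genes were separated towards higher levels). The log2 fold change was 1.45 with a wide error (SE 0.57, adjusted p = 0.104). Without control mouse S446, the highest of that group, it was 2.42 and passed (adjusted p = 0.0251), and without the 6 libraries with Krt14 it was 1.15 (adjusted p = 0.291). HSALR mice had 22, 33, 12, 17 and 6 counts with vehicle and 31, 28, 18, 14 and 18 with AICAR, which overlapped (log2 fold change 0.28, adjusted p = 0.664). Without S446 Gdf15 was also called between HSALR and control mice after vehicle (1.79, adjusted p = 0.0431), against 0.82 with all mice (adjusted p = 0.275).

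Per transcript length the members followed Atf4 in the order Atf5 (29.4 RPKM), Ddit3 (13.0), Impact (10.4), Asns (1.47), Psat1 (1.19), Phgdh (1.13), Sesn2 (0.979), Trib3 (0.649) and Gdf15 (0.245), as means over 16 mice. Across the mice the log2 levels of Atf4 correlated with those of Sesn2 (Pearson r = 0.774) and Atf5 (r = 0.766), and Psat1 with Phgdh (r = 0.647). Impact correlated negatively with Sesn2 (r = -0.66) and weakly with Asns (r = 0.1). These values describe 16 mice that share group, treatment and library, and they are not tests. Among all genes tested, the pattern most like that of Impact was that of Slc7a5 (r = 0.95), followed by Tinagl1 (r = 0.942), Wdr81 (r = 0.92), Ccz1 (r = 0.913) and Becn1 (r = 0.911). The genes most like Atf4 were Ska2 (r = 0.939) and Dmpk (r = 0.914), and those most like Atf5 were Pcp4l1 (r = 0.944) and Isoc2a (r = 0.932). For Ddit3 the closest was Rps6ka4 (r = 0.839), for Asns Cap1 (r = 0.868), for Sesn2 Armc9 (r = 0.868) and for Trib3 Zfp775 (r = 0.777). Psat1 was closest to Rarres1 (r = 0.914), Phgdh to Ctsh (r = 0.941) and Gdf15, at few counts, to Ywhah (r = 0.911).

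Slc7a5, whose pattern was closest to that of Impact, encodes the light chain of the leucine transporter LAT1, itself an ATF4 target. Its means were 5.06 ± 0.82 CPM in control mice with vehicle and 15.3 ± 4.89 CPM with AICAR (SD, n = 3 each), a log2 fold change of 1.60 (SE 0.26, adjusted p = 0.00114). In HSALR mice the means were 4.13 ± 0.45 and 5.25 ± 1.52 CPM (SD, n = 5 each), a value of 0.35 that did not pass (adjusted p = 0.214). The difference of the AICAR effects on Slc7a5 was -1.25 (SE 0.32) and was not called (adjusted p = 0.0868). After AICAR, Slc7a5 was lower in HSALR than in control mice (-1.54, SE 0.22, adjusted p = 0.000181), beside -1.98 for Impact.

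Beyond the members, 97 genes of the pathway were grouped by role in 11 lists, of which 95 genes were tested. The lists were chosen with earlier results of these data known, so their shares of calls are descriptions and not tests. Between HSALR and control mice after vehicle 40 of 95 were called (42.1%, beside 26.9% of all genes), 22 higher and 18 lower. Of these calls 17 held in all 16 fits that left out 1 mouse. Endoplasmic reticulum chaperones and unfolded protein response genes held 9 of 14 called, all higher and with a list median of 0.36 (0.01 over all genes, of which 15.4% were called higher). They were led by Xbp1, a transcription factor of that response (0.78, SE 0.09, adjusted p = 2.29e-05), the neurotrophic factor gene Manf (0.91, adjusted p = 4.12e-05) and the chaperone partner gene Sdf2l1 (0.85, adjusted p = 0.00014). Most of these calls were lost without the 6 libraries with Krt14. That fit leaves 1 HSALR mouse with vehicle and also calls far fewer of all genes.

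The tRNA synthetases were in 2 lists, whose difference was not tested. Of the 12 synthetases known to be induced through ATF4, 7 were called and all were lower, with a median of -0.18 (11.5% of all genes were called lower). Aars was lowest in p (-0.40, SE 0.06, adjusted p = 0.000236), followed by Yars (-0.27, adjusted p = 0.00309) and Lars (-0.23, adjusted p = 0.0105), the last lost without control mouse S445 (-0.21, adjusted p = 0.0515). Of the 8 other cytosolic synthetases 5 were called and all were higher, with a median of 0.17 (15.4% of all genes were called higher). These were Kars (0.30, adjusted p = 0.00168), Dars (0.25, adjusted p = 0.00331), Qars (0.23), Hars (0.18) and Rars (0.17). The 5 calls became 2 without control mouse S445 or S446 and 3 without control mouse S448 or HSALR mouse S452 or S459. Of the 12 synthetases induced through ATF4, 5 to 7 were called lower in each fit that left out 1 mouse. Without the 6 libraries with Krt14 most calls of both lists were lost. That fit leaves 1 HSALR mouse with vehicle and also calls far fewer of all genes. Relative to Tbp the first list had a median of 0.09 with 2 genes called higher and 0 lower, and the second a median of 0.45 with 6 higher.

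Of the partner factors of ATF4, 2 of 6 were called after vehicle, Atf3 and Jun, both higher (beside 26.9% of all genes), and Jun (0.67, adjusted p = 0.0245) was lost without control mouse S445 (0.56, adjusted p = 0.117) or S450 (0.66, adjusted p = 0.0693). Atf3, a factor induced downstream of ATF4 and by other stress, rose from 13.7 ± 7.66 CPM in control to 164 ± 66.04 CPM in HSALR mice (SD, n = 3 and 5), a log2 fold change of 3.57 (SE 0.46, adjusted p = 4.6e-05). Of the stress effectors 5 of 8 were called, 1 higher and 4 lower, and all of these calls were lost without control mouse S450. Chac1, a glutathione-degrading enzyme gene, was lower (-2.03, SE 0.54, adjusted p = 0.0112), which was lost without control mouse S450 (-1.39, adjusted p = 0.0934). Of the 12 serine, one-carbon and proline enzymes 4 were called, beside 26.9% of all genes: Aldh1l2, a mitochondrial folate enzyme (-1.29, SE 0.11, adjusted p = 1.64e-06), Pycr1 (-0.60, adjusted p = 0.0156) and Aldh18a1 (-0.36, adjusted p = 0.0237) of proline synthesis were lower and Shmt1 (0.67, adjusted p = 0.00777) was higher. The calls of Pycr1 and Aldh18a1 were lost without control mouse S445 (adjusted p = 0.074 and 0.056) or S446 (0.0753 and 0.0995), and that of Aldh18a1 also without HSALR mouse S459 (0.052). Of the sensors, Eif2ak2, which encodes PKR, was at -0.30 (adjusted p = 0.0255) and Eif2ak4, which encodes GCN2, at -0.23 (adjusted p = 0.0419). The Eif2ak2 call was lost without mouse S445, S450, S453 or S458 (adjusted p from 0.0524 to 0.116), and the Eif2ak4 call without mouse S445, S446, S447, S452, S453, S454 or S459 (adjusted p from 0.0522 to 0.138).

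With AICAR in control mice 17 of 95 list genes were called (17.9%, beside 13.2% of all genes), 16 higher and 1 lower. Of these calls 9 held in all 16 fits that left out 1 mouse. Amino acid transporters held 4 of 8 called, all higher: besides Slc7a5 these were its heavy chain Slc3a2 (0.42, SE 0.07, adjusted p = 0.00218), the neutral amino acid carrier Slc38a2 (1.21, SE 0.26, adjusted p = 0.00655) and the glycine carrier Slc6a9 (0.68, adjusted p = 0.0338). The Slc6a9 call was lost without mouse S446, S448, S449 or S450 (adjusted p from 0.0679 to 0.125). Fewer of the 8 transporters were called without the 6 libraries with Krt14. That fit leaves 1 HSALR mouse with vehicle and also calls fewer of all genes. Stc2, a secreted glycoprotein gene, had the greatest change of the lists, from 4.78 ± 1.41 to 29.9 ± 8.04 CPM (SD, n = 3 each), a log2 fold change of 2.64 (SE 0.41, adjusted p = 0.000983). Mthfd1l, a mitochondrial one-carbon enzyme gene, rose by 1.68 (SE 0.38, adjusted p = 0.00911). The 1 lower gene was Aars (-0.30, adjusted p = 0.0102). None of the 8 sensors and GCN2 partners was called by edgeR, and 2 had an unadjusted p under 0.05 (0 called by DESeq2 and by limma-voom).

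**Figure D4:**
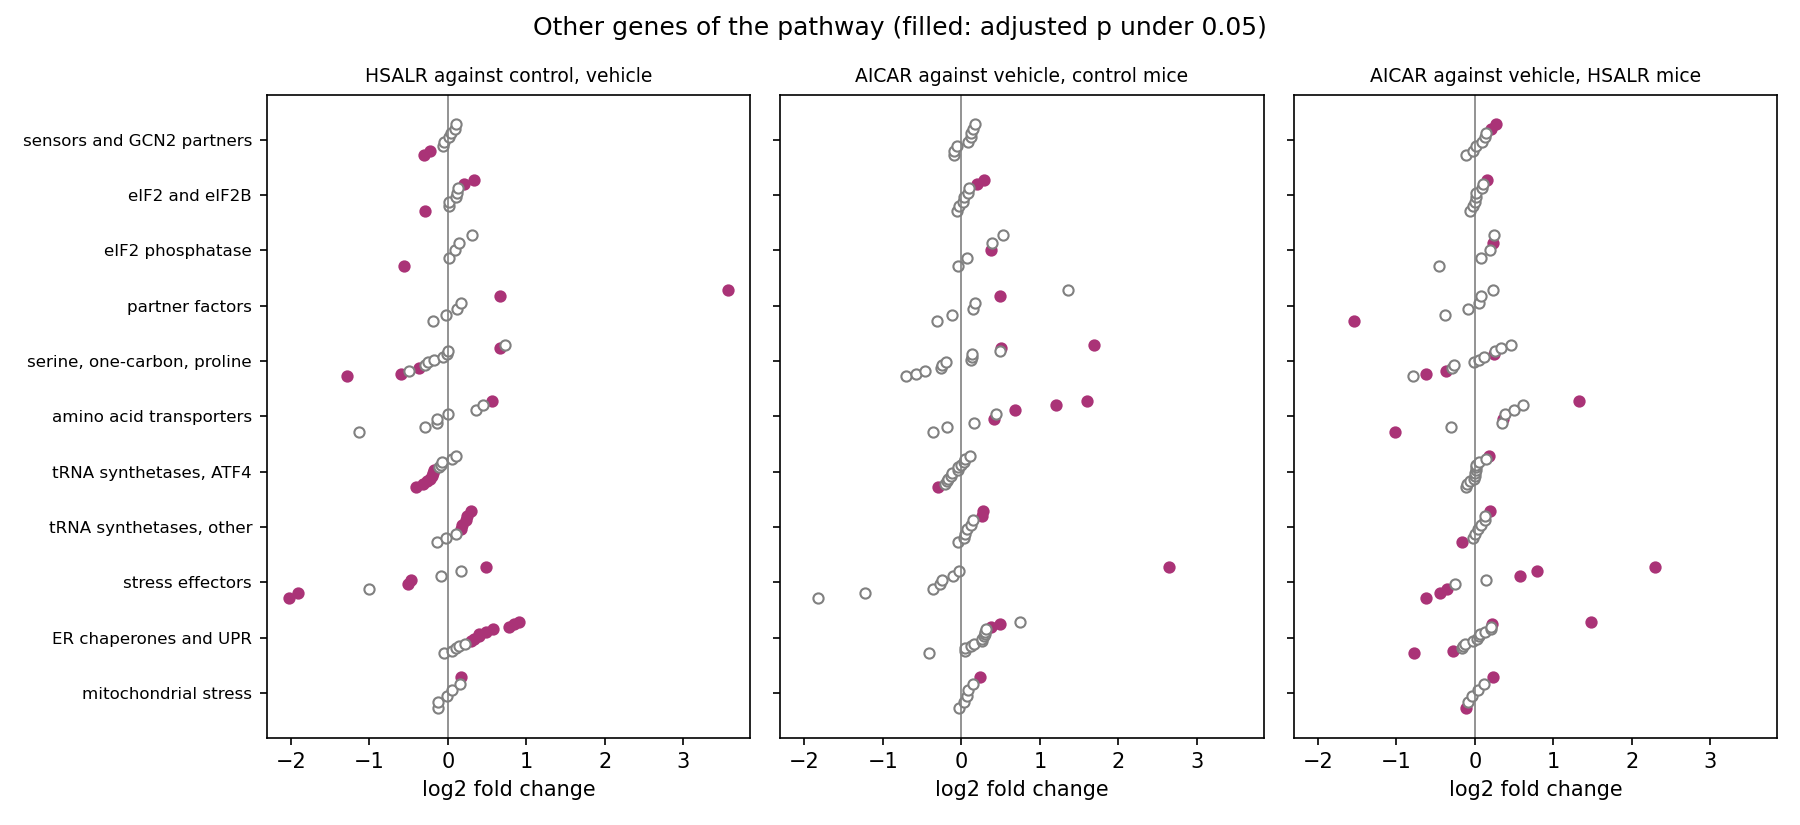
Log2 fold change (x axis) of the 95 tested pathway genes by list in the genotype comparison after vehicle and in the AICAR comparison of each genotype. Filled points have an adjusted p under 0.05; after vehicle the called synthetases induced through ATF4 are all below 0 and those of the other list all above 0.

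With AICAR in HSALR mice 26 of 95 list genes were called (27.4%, beside 26.6% of all genes), 15 higher and 11 lower. Of these calls 17 held in all 16 fits that left out 1 mouse. On the log2 scale Stc2 rose by 2.30 (SE 0.32, adjusted p = 0.000153), Slc6a9 by 1.33 (SE 0.16, adjusted p = 3.33e-05), and the transporter gene Slc1a4 fell by 1.02 (adjusted p = 0.000256). Slc3a2 rose by 0.35 (SE 0.06, adjusted p = 0.000477), so that 3 of 8 transporters were called. Ern1, which encodes the sensor IRE1 of the unfolded protein response, was higher by 1.47 (SE 0.25, adjusted p = 0.000608) and Sdf2l1 lower (-0.78, SE 0.10, adjusted p = 9.87e-05). Of the sensors and partners of GCN2, Dele1, the relay of mitochondrial stress to HRI, rose by 0.27 (SE 0.06, adjusted p = 0.00275), and Gcn1 was at 0.20 (adjusted p = 0.0401), a call lost without mouse S445, S451, S453, S454, S458, S462 or S463 (adjusted p from 0.0509 to 0.092). In the fit without the 6 libraries with Krt14, where 1 HSALR mouse with vehicle remains and 899 genes are called in place of 4121, the values of Stc2, Ern1, Sdf2l1 and Dele1 were 2.12, 1.45, -0.76 and 0.32, and none of the 4 was called (adjusted p = 0.135, 0.172, 0.0531 and 0.107).

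After AICAR 19 of 95 list genes were called between the genotypes (20%, beside 21.8% of all genes), 8 higher and 11 lower in HSALR mice. Of these calls 8 held in all 16 fits that left out 1 mouse. Aldh1l2 was lower (-1.54, SE 0.11, adjusted p = 5e-07), as it was after vehicle. Stc2 was lower (-1.34, SE 0.34, adjusted p = 0.0107), a call lost without control mouse S449 (-1.11, adjusted p = 0.0576), and Jun, the partner of ATF factors in AP-1, was higher by 1.02 (SE 0.21, adjusted p = 0.00291). The effect of AICAR differed between the genotypes for 2 of 95 list genes, beside 0.691% of all genes. Atf3 went from 13.7 ± 7.66 to 35.3 ± 16.7 CPM in control mice (1.36, adjusted p = 0.0541) and fell from 164 ± 66.04 to 56.5 ± 16.3 CPM in HSALR mice (-1.54, adjusted p = 0.00381), a difference of -2.90 (SE 0.56, adjusted p = 0.029). Vldlr, a lipoprotein receptor gene induced through ATF4, was at -0.11 in control mice and rose by 0.79 in HSALR mice (adjusted p = 9.89e-05), a difference of 0.90 (SE 0.17, adjusted p = 0.029). The Atf3 difference lost its call without mouse S445, S448, S449, S450, S452, S454, S455, S462 or S463 (adjusted p from 0.0508 to 0.0909). The Vldlr difference lost it without mouse S445, S447, S448, S449, S450, S452, S454, S455 or S463 (adjusted p from 0.0504 to 0.0778) and relative to Tbp (0.56, adjusted p = 0.0737). In the fit without the 6 libraries with Krt14, which has 1 HSALR mouse with vehicle and calls 0 of all genes for this difference (1485 at an unadjusted p under 0.05), the values were -3.13 and 0.62.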

How the data were processed

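RNA-seq of gastrocnemius muscle from 16 mice, labelled with separate mouse numbers, was deposited as 1 table of gene read counts. Per the labels the libraries were stranded mRNA libraries, and the submitters' processing notes name STAR 2.5.2a and the mm10 build; the authors counted single-end reads that start in an exon of a RefSeq gene with qCount of QuasR, whose strand setting is not given in the sources used here. The deposited counts were used as whole numbers (64890014 to 81987726 per library, replicates were not duplicates), and 24374 of 24454 genes matched RefSeq (80 did not). Levels are CPM after TMM scaling, and RPKM used the length column of the table. Genes passing filterByExpr (15487) were fitted with edgeR 4.0.16 (quasi-likelihood test, means of 4 groups, Benjamini-Hochberg, threshold 0.05, R 4.3.3), which was tested on simulated data. Alternatives were DESeq2 1.42.0, limma-voom (limma 3.58.1), scalings, filters, only the 2 groups compared, an epidermal covariate (log2 of summed CPM plus 0.1), each mouse left out and, added after seeing the data, the libraries with over 1 CPM of Krt14 left out. Likeness used log2 CPM with a prior count of 2. The genes named are all 10 members, up to 3 genes of smallest p per list and comparison, those needed for counts of 5 or fewer, and the genes of most alike pattern (5 for Impact, 2 or the closest for others). The members and lists were chosen with earlier results of these data known.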

Additional observations from a re-analysis of the deposited data

Results flagged for a closer look

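In HSALR mice with AICAR, the Atf4 level of mouse S455 was 126 CPM, far from the other 4 mice (156 to 166 CPM). In HSALR mice with vehicle, the Asns level of mouse S458 was 3.63 CPM, far from the other 4 (1.83 to 2.35 CPM). Dixon's test was run on 20 groups of 5 values and marked these 2, where chance marks about 1 in 20. The effect of AICAR differed between the genotypes, HSALR minus control, for Impact (difference of the log2 fold changes -1.74), for Atf3 (-2.90) and for Vldlr (0.90), each by the interaction term of the edgeR fit. The Impact difference kept its call in all 16 fits that left out 1 mouse, and those of Atf3 and Vldlr did not.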

How the results depend on the processing

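No paired analysis was possible because the mouse numbers of the labels are not shared between groups. Of 1285 values of members under the alternatives, 1237 kept their side of the threshold, 34 gained a call, 14 lost one and 0 called values turned sign. Among those not called either way, 63 had the other sign. The cause of the shifts was not tested. Without the libraries with Krt14, the genes called were 904 (HSALR against control, vehicle), 697 (AICAR, control), 899 (AICAR, HSALR) and 0 for the difference of AICAR effects by edgeR (1485 at an unadjusted p under 0.05), and the members called were 1 (AICAR, control), 0 (AICAR, HSALR; 2 unadjusted) and 0 (difference; 1 unadjusted), in a fit that keeps 1 HSALR mouse with vehicle. With DESeq2 the difference called 536 genes, and 2 members were called between the genotypes after AICAR and 5 with AICAR in HSALR mice. With library size scaling 4 members were called in the last comparison. Relative to Tbp the genes called were 1396 (genotypes, AICAR) and 381 (difference), and the members called 2 (genotypes, vehicle) and 1 (AICAR, control). With the epidermal covariate they were 2108 genes (AICAR, HSALR) and 57 (difference), and with only the 2 groups in the fit 1164 (AICAR, control). Higher against lower calls went from 2385 and 1784 to 5053 and 242 relative to Tbp (genotypes, vehicle), from 1301 and 738 to 916 and 890 with library size and 2028 and 122 with Tbp (AICAR, control), from 2114 and 2007 to 1327 and 2962 and to 697 and 2071 (AICAR, HSALR), and from 32 and 75 to 6 and 375 with Tbp (difference). Leaving out 1 mouse gave 2826 to 4296 genes and 0 to 1 members (genotypes, vehicle), 2214 to 3790 and 1 to 2 (genotypes, AICAR; 2214 without S447), 1143 to 2186 and 2 to 4 (AICAR, control; 1143 without S449, 1214 without S445, 1344 without S448), 3146 to 4301 and 2 to 4 (AICAR, HSALR), and 15 to 371 and 1 to 1 (difference; 15 without S448, 371 without S460). At 4 to 33 counts of Gdf15 per library, small differences were not detectable.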
